A study of Mus musculus with 6 samples.

Results

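The collagen genes of mouse were followed in macrophages grown in culture from bone marrow. They were taken by symbol, as every gene whose whole name is Col, a number, the letter a and a number, which gave 34 of the 17313 genes in the table. All mice carried floxed Hdac2 alleles on the C57BL/6 background and had been injected by vein with LLC1 cells, a mouse lung carcinoma line, and marrow was collected on day 20. The control group, labelled WT (3 libraries), was Hdac2 fl/fl without Cre. The other group, labelled KO (3 libraries), carried Hdac2 fl/fl and LysM-Cre, a recombinase driven from the lysozyme gene of myeloid cells, so that cells of other lineages in the same marrow are not its target. The comparison asks how inactivation of HDAC2, a histone deacetylase, changes the RNA of these cells. Nothing in the labels says that the libraries of a group are separate mice, and p-values here reflect only library-to-library spread, part of which may be technical.

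Collagens are secreted or membrane proteins built as a helix of 3 chains, in which glycine recurs at a fixed step. Fibrillar collagens form the cables of bone, tendon and stroma. Network collagens form the sheets of basement membranes and related lattices, fibril-associated collagens decorate the cables, and transmembrane collagens sit in the cell surface. In marrow the main known producers are stromal fibroblasts, osteoblasts and the cells of vessel walls, while macrophages are better known for taking up and degrading collagen.

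By class, 11 members were fibrillar, 8 network, 6 fibril-associated and 1 transmembrane (Col23a1), and the other 8 were the type VI chains, the anchoring fibril gene Col7a1, Col15a1, Col18a1 and Col28a1. Values are whole-number counts after division by a library factor, called scaled counts here. The library totals lay between 5704313 and 5837994. The factors could be read from gaps and repeats in the low values for 5 libraries, which puts the reads counted between 5290000 in WT 2 and 6240000 in KO 1, and the depth of WT 3 is unknown. Of the 34 members, 30 had at least 10 scaled counts in at least 3 libraries and were tested. The remaining 4, Col9a3, Col4a6, Col4a3 and Col22a1, had no value above 8 in any library.

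The libraries of the WT group differed among themselves, which touches every value below. WT 1 lay above both WT 2 and WT 3 in 25 of the 30 tested collagens, against 32.7% of the 13260 genes tested. Xist, the RNA of the inactive X chromosome, was at 5243 in WT 1 and at 3298 to 4997 in the KO libraries, but at 0 in WT 2 and 74 in WT 3, so WT 1 shared this feature with the KO libraries. Ddx3y, on the Y chromosome, was at 44, 308 and 745 in WT against 10, 0 and 0 in KO, and Kdm5d, another Y-linked gene, was at 34, 473 and 482 against 5, 0 and 0. WT 1 therefore held RNA of both kinds, with Y-linked values far below WT 2 and WT 3 but above every KO library. The groups differ in sex-linked RNA, the labels used here give no sex, and genotype, sex and a mixed or exchanged sample cannot be told apart in any KO to WT value. Tested collagens are therefore given also without WT 1 and against WT 1 alone. Hdac2 stood at 534, 482 and 518 in WT against 392, 387 and 375 in KO, so every KO library was lower, the direction its label gives.

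The promoters of 4 fibrillar genes are shown first, because they span the range of the results: Col11a1 had the largest KO to WT difference, Col24a1 was the fibrillar gene with the opposite direction, and Col3a1 and Col5a1 encode partners in one fibril and had nearly the same difference. Each line is the 250 bases upstream of the RefSeq start (GRCm38.p6, plus strand, read 5′ to 3′), and capitals mark the letters GGGCGG (the GC box, bound by SP1 and its relatives), CCAAT and TATAAA on either strand. They lie at chr3:114030290-114030539 for Col11a1, chr3:145292222-145292471 for Col24a1, chr1:45311288-45311537 for Col3a1 and chr2:27886175-27886424 for Col5a1, and no annotated exon overlaps these stretches.
Col11a1: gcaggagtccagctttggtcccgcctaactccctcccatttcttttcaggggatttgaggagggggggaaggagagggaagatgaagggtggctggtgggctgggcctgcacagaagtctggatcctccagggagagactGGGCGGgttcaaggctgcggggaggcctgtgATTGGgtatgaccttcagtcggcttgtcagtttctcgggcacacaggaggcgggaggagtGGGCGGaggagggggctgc
Col24a1: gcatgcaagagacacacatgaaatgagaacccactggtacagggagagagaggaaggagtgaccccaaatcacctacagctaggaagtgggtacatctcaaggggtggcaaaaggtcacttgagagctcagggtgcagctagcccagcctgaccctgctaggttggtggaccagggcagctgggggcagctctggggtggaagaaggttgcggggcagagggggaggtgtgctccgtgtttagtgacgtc
Col3a1: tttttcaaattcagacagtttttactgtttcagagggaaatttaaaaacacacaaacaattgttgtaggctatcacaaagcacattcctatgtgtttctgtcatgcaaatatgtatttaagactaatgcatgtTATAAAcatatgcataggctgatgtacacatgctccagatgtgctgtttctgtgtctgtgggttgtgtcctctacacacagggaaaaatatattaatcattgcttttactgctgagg
Col5a1: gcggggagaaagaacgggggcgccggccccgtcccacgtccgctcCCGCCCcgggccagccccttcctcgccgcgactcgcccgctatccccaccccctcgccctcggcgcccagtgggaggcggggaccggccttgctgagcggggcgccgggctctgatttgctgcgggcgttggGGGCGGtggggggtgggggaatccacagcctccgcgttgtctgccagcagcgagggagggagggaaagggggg

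The upstream stretches of Col5a1 and Col3a1 were unlike each other, with 76.4% G and C in the first and 35.2% in the second. Col5a1 held 2 GC boxes and no TATAAA, and Col3a1 held 1 TATAAA and no GC box. Col11a1 held 2 GC boxes and 1 CCAAT, and Col24a1 none of the 3 motifs. Windows of 300 bases, reaching 50 bases past the start, were given for 26 of the 34 members (28 windows), and Col1a1 was not among them. GGGCGG was found in 19 of the 28 windows (67.9%) and in 35.7% of all 32851 windows, CCAAT in 35.7% against 37.4%, and TATAAA in 10.7% against 13.6%. These are letter matches in a fixed window and say nothing of whether a factor binds there.

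Taken as a family, most collagens had higher values in the KO libraries than in the WT libraries, but no single member passed the test over all genes. Of the 30 tested members, 27 had a higher KO mean on the log2(scaled count + 1) scale, against 49.1% of all tested genes. The median KO minus WT difference was 1.14 for the collagens and 0.00 for all tested genes. The limma test with Benjamini-Hochberg adjustment called 0 collagens and 0 of 13260 genes (0%) with all 6 libraries. Before adjustment, 21 collagens were higher and 1 was lower at p under 0.05, a level that 14.7% and 9.68% of all tested genes reached. The 3 KO values were all above the 3 WT values in 17 collagens and all below them in 2, against 16.1% and 13.4% of all genes. In 15 collagens the KO mean was at least 2 times the WT mean, against 9.11% of all genes.

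The size of the difference depended on WT 1. Without it, limma called 25 of the 30 collagens higher and 0 lower at an adjusted p under 0.05, against 12.8% and 5.07% of all tested genes, and the median difference was 1.62. The 5 not called in that fit were Col24a1, Col20a1, Col18a1, Col4a5 and Col23a1. Against WT 1 alone, which is then assumed to vary like the KO libraries, the median was 0.24 and 0 collagens were called. In that comparison 8 collagens were higher at an unadjusted p under 0.05 and 0 lower, against 5.17% and 1.06% of all genes. All 3 KO libraries lay above WT 1 in 19 collagens and below it in 2, against 28.4% and 24.6% of all genes. WT 1 was nearer to the KO mean than to the mean of WT 2 and WT 3 in 24 of 30 collagens and in 66.4% of all genes.

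**Figure D1:**
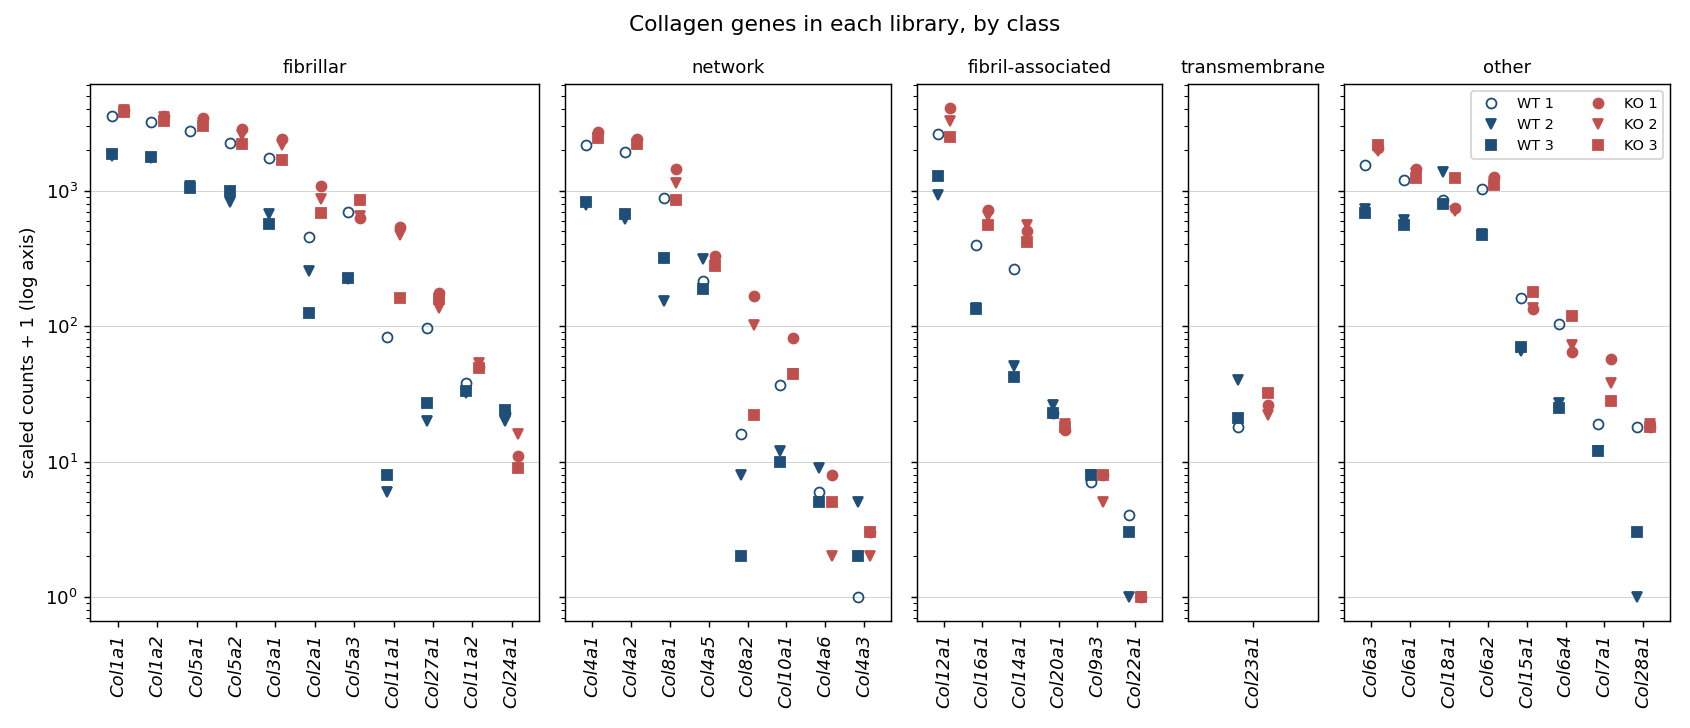
Scaled counts plus 1 of all 34 collagens (log axis) in the 3 WT libraries (blue, WT 1 as open circles) and the 3 KO libraries (red), in 5 classes. WT 1 lies above WT 2 and WT 3 in most genes and near or below the KO libraries, as in Col1a1 at 3547 against 1798 and 1858 in WT and 3767 to 3953 in KO.

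Summed over the family, collagens made up 0.485%, 0.225% and 0.221% of all scaled counts in WT 1, WT 2 and WT 3 and 0.635%, 0.579% and 0.549% in KO 1, KO 2 and KO 3. All KO libraries were above all WT libraries in this sum, and WT 1 held more than its WT partners. Fibrillar genes gave 50.5% to 52.5% of the collagen counts in every library, and network genes 14.5% to 18.5% in WT and 18.4% to 19.3% in KO. Fibril-associated genes gave 8.79% to 11.7% in WT and 11.1% to 14.4% in KO, and the mixed group of 8 gave 17.4% to 25.3% and 15.7% to 19.5%. The transmembrane gene gave 0.06% to 0.299% over all libraries. The share of Col1a1 and Col1a2 together was 23.9%, 27.2% and 28.3% in WT against 20.4%, 21.9% and 22.4% in KO, without overlap.

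Among the fibrillar genes, Col1a1 and Col1a2, the chains of type I collagen of bone and skin, were the highest collagens per kilobase of the longest coding transcript in every library. With all annotated exons counted as length, Col1a1 was still highest on average, at 478, but Col1a2 was at 228, below Col5a1 at 284. Col1a1 (ENSMUSG00000001506, chromosome 11, 94936224 to 94953042, mm10) was at 3547, 1798 and 1858 in WT against 3953, 3914 and 3767 in KO. Col1a2 (ENSMUSG00000029661, chromosome 6, 4504814 to 4541544) was at 3227, 1749 and 1754 against 3576, 3468 and 3249. Neither gene overlapped between the groups, but WT 1 came close to the KO level, with KO means 1.09 and 1.06 times that library. The log2 difference was 0.77 ± 0.26 (SE, limma adjusted p = 0.165) for Col1a1 and 0.67 ± 0.24 (adjusted p = 0.171) for Col1a2. It was 1.08 and 0.97 without WT 1 (adjusted p = 0.000417 and 0.000675), and 0.13 and 0.09 against WT 1 alone.

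Col3a1, Col5a1 and Col5a2 encode chains that join type I fibrils, with type V collagen starting and limiting fibril growth. Col3a1 (chromosome 1, 45311538 to 45349706) was at 1749, 675 and 564 in WT against 2403, 2166 and 1690 in KO. Col5a1 was at 2732, 1078 and 1039 in WT against 3441, 3172 and 3011 in KO. Col5a2 was at 2225, 824 and 993 against 2832, 2591 and 2196. WT 1 lay just above KO 3 for Col3a1 and Col5a2, so those groups overlapped, and Col5a1 did not overlap. The log2 differences of Col3a1, Col5a1 and Col5a2 were 1.24 ± 0.43, 1.14 ± 0.37 and 1.05 ± 0.37 (SE), with limma adjusted p-values of 0.166, 0.160 and 0.168. They were 1.74, 1.60 and 1.48 without WT 1, and 0.24, 0.23 and 0.18 against WT 1 alone. Col5a3, a less widely expressed type V chain, was at 694, 220 and 225 in WT against 627, 645 and 846 in KO, with a difference of 1.10 from all libraries, 1.65 without WT 1 and 0.01 against WT 1 alone.

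The cartilage fibril genes Col2a1 and Col11a1 had larger differences than the type I genes. Col2a1, the main cartilage collagen, was at 453, 253 and 123 in WT against 1083, 869 and 684 in KO, a log2 difference of 1.83 ± 0.46 (SE, limma adjusted p = 0.158), 2.28 without WT 1 and 0.93 against WT 1 alone. Col11a1 (ENSMUSG00000027966, chromosome 3, 114030540 to 114220718), a chain of the type XI core of cartilage fibrils, was at 82, 5 and 7 in WT against 541, 468 and 159 in KO. Its KO mean was 12.4 times the WT mean and 4.75 times WT 1, with KO 3 far below KO 1 and KO 2, and its log2 difference was 4.44 ± 1.07 (adjusted p = 0.158), 5.63 without WT 1 and 2.05 against WT 1 alone. Col11a2, the partner chain of type XI, differed much less, at 37, 31 and 32 in WT against 49, 52 and 48 in KO, a log2 difference of 0.56 ± 0.15 (adjusted p = 0.158), 0.64 without WT 1 and 0.41 against WT 1 alone. Of 6 markers of chondrocytes, the cells of cartilage, 4 were in the table and 2 were tested. Their transcription factor Sox9 was low but separated the groups like the cartilage collagens, at 31, 9 and 4 in WT against 51, 47 and 49 in KO (log2 difference 2.10 ± 0.65, SE, limma adjusted p = 0.158). The matrix gene Matn3 was at 1 to 2 in WT and 3 to 10 in KO, whereas Matn1 and Comp overlapped between the groups, at 27 or below. The 4 markers summed to 58, 35 and 25 in WT and to 86, 95 and 72 in KO, and the part of such cells in the collagen values was not tested.

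Of the remaining fibrillar genes, one was higher and one lower in KO. Col27a1, a collagen of growth plate cartilage, was at 96, 19 and 26 in WT against 174, 135 and 156 in KO, and its log2 difference of 2.05 ± 0.58 had a limma adjusted p of 0.158, with 2.74 without WT 1 and 0.68 against WT 1 alone. Col24a1 (ENSMUSG00000028197, chromosome 3, 145292472 to 145552011), known from developing bone, was at 22, 19 and 23 in WT against 10, 15 and 8 in KO. It ran against its class, with every KO library below every WT library and with WT 1 level with WT 2 and WT 3. Its log2 difference was -0.93 ± 0.30 (adjusted p = 0.158), -0.91 without WT 1 and -0.98 against WT 1 alone, so it did not depend on WT 1, although at about 10 to 20 scaled counts it is close to the lower limit of the test.

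**Figure D2:**
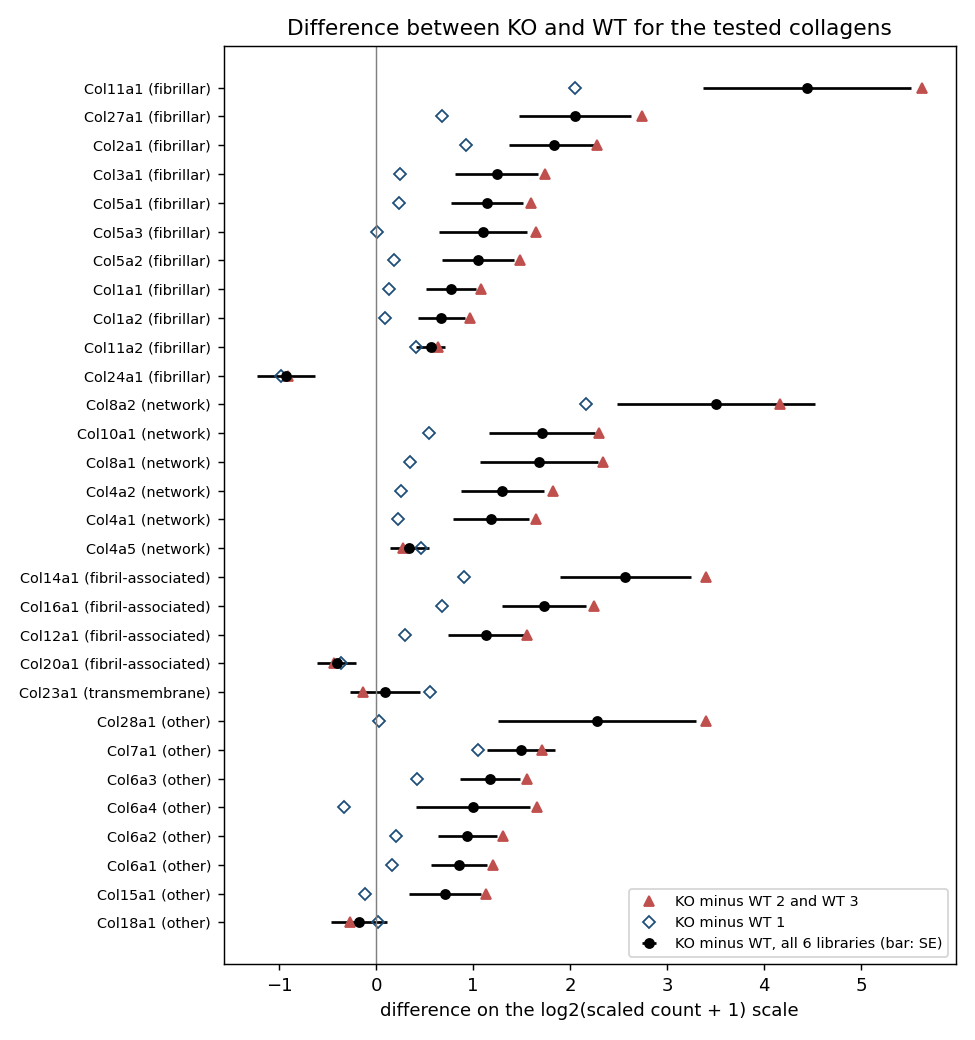
KO minus WT difference of the 30 tested collagens on the log2(scaled count + 1) scale, for all 6 libraries (black, bar = SE), for KO against WT 2 and WT 3 (triangles) and for KO against WT 1 (open diamonds). Most collagens lie much closer to 0 against WT 1 than against WT 2 and WT 3, where most are over 1, whereas Col24a1, Col20a1, Col11a2 and Col4a5 are placed alike by all 3.

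In the network class, Col4a1 and Col4a2, the chains found in nearly all basement membranes, had almost equal differences. Col4a1 (chromosome 8, 11198423 to 11312826) was at 2172, 782 and 827 in WT against 2703, 2451 and 2455 in KO. Col4a2 (chromosome 8, 11312805 to 11449287) was at 1911, 611 and 672 against 2397, 2196 and 2222. In both genes all KO libraries lay above WT 1, which in turn lay far above WT 2 and WT 3. The log2 differences were 1.18 ± 0.39 and 1.30 ± 0.43 (SE), with limma adjusted p-values of 0.162 and 0.161. They were 1.65 and 1.82 without WT 1, and 0.22 and 0.25 against WT 1 alone. The genes lie head to head on opposite strands and overlap by 22 bases at their starts, and the sources used here do not give how reads were counted by strand.

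Col4a5, a kidney and lung basement membrane chain on the X chromosome, did not share this pattern. It was at 214, 314 and 188 in WT against 330, 282 and 278 in KO, with WT 2 inside the KO range, and its log2 difference was 0.34 ± 0.20 (SE, limma adjusted p = 0.330), 0.28 without WT 1 and 0.46 against WT 1 alone. Its head-to-head neighbour Col4a6, which starts 1308 bases away, had 4 to 8 scaled counts in WT and 1 to 7 in KO. The neighbours therefore had very different levels, and Col4a3 was lower still, at 0 to 4 in all libraries.

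The short-chain network collagens were among the most variable members. Col8a1, a chain of vessel wall and eye, was at 875, 152 and 319 in WT against 1440, 1134 and 853 in KO. Col8a2, its partner chain, was at 15, 7 and 1 in WT against 165, 100 and 21 in KO. KO 3 was the lowest KO library for each and overlapped WT 1 for Col8a1. Their log2 differences were 1.68 ± 0.61 and 3.50 ± 1.02 (SE, limma adjusted p = 0.175 and 0.158). Without WT 1 they were 2.34 and 4.16, and against WT 1 alone 0.35 and 2.16. Col10a1, the collagen of hypertrophic cartilage, was at 36, 11 and 9 in WT against 80, 43 and 43 in KO, a difference of 1.71 ± 0.55 (adjusted p = 0.160), 2.30 without WT 1 and 0.54 against WT 1 alone.

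Of the fibril-associated class, Col12a1, Col14a1 and Col16a1 were higher in the KO mean. Col12a1, which links fibrils in tendon and skin, was at 2614, 929 and 1288 in WT against 4061, 3283 and 2487 in KO. Col14a1 (chromosome 15, 55307750 to 55520803), a regulator of fibril diameter, was at 261, 50 and 41 in WT against 503, 556 and 414 in KO. Col16a1, a minor collagen of skin and cartilage, was at 397, 135 and 132 against 717, 652 and 554. The groups overlapped for Col12a1 because of WT 1 and KO 3, and did not overlap for Col14a1 and Col16a1. The log2 differences were 1.13 ± 0.39 for Col12a1, 2.57 ± 0.68 for Col14a1 and 1.73 ± 0.43 for Col16a1 (SE, limma adjusted p = 0.167, 0.158 and 0.158). Without WT 1 they were 1.55, 3.40 and 2.25, and against WT 1 alone 0.30, 0.90 and 0.68.

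Col20a1, a fibril-associated gene with low values, was on the other side, at 22, 25 and 22 in WT against 16, 18 and 17 in KO, a log2 difference of -0.41 ± 0.20 (SE, limma adjusted p = 0.257), -0.44 without WT 1 and -0.36 against WT 1 alone. Like Col24a1, it had every KO library below every WT library. Col9a3 was at 4 to 7 scaled counts in all libraries, and Col22a1 was at 3, 0 and 2 in WT and at 0 in every KO library, too few for a comparison.

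The transmembrane class was represented by Col23a1 alone, at 17, 39 and 20 in WT against 25, 21 and 31 in KO. The groups overlapped, and its log2 difference of 0.09 ± 0.36 (SE, limma adjusted p = 0.905) turned to -0.14 without WT 1 and to -0.21 under cyclic loess, and was 0.55 against WT 1 alone. The other transmembrane genes, Col13a1, Col17a1 and Col25a1, had no entry by that symbol in the table of genes.

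The type VI genes, which encode the beaded filaments around many stromal cells, behaved alike for 3 of 4 chains. Col6a1 was at 1201, 608 and 558 in WT against 1442, 1343 and 1242 in KO. Col6a2 was at 1018, 477 and 465 against 1253, 1147 and 1102. Col6a3 was at 1552, 736 and 683 against 2077, 1965 and 2183. None of these overlapped between the groups, and Col6a3 stood clearest of WT 1, with a KO mean 1.34 times that library. The log2 differences were 0.85 ± 0.29, 0.94 ± 0.30 and 1.17 ± 0.31 (SE, limma adjusted p = 0.164, 0.160 and 0.158). Without WT 1 they were 1.20, 1.31 and 1.55, and against WT 1 alone 0.16, 0.20 and 0.42. Col6a4 was at 102, 26 and 24 in WT against 63, 72 and 117 in KO, so that WT 1 was above KO 1 and KO 2, and its difference of 1.00 ± 0.59 (adjusted p = 0.343) was 1.66 without WT 1 and turned to -0.33 against WT 1 alone.

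Col18a1 and Col15a1, the multiplexins of vessel and epithelial basement membranes, differed from each other. Col18a1, which also gives rise to the fragment endostatin, was at 850, 1372 and 795 in WT against 742, 703 and 1233 in KO, with WT 2 and KO 3 high and the others close together. Its log2 difference was -0.18 ± 0.29 (SE, limma adjusted p = 0.759) and was -0.27 without WT 1, and it turned to 0.07 without WT 2 and to 0.02 against WT 1 alone. Col15a1 was at 160, 64 and 69 in WT against 132, 135 and 178 in KO, with WT 1 near the KO libraries as in most collagens. Its difference was 0.71 ± 0.37 (adjusted p = 0.282), 1.13 without WT 1 (adjusted p = 0.00832) and -0.12 against WT 1 alone. Of 8 endothelial markers 4 were tested. Kdr was at 124, 69 and 63 in WT against 116, 99 and 129 in KO, and Cdh5 at 44, 15 and 16 against 42, 39 and 29. Their log2 differences were 0.48 and 0.69 (limma adjusted p = 0.329 and 0.376). Without WT 1 both were called higher (limma adjusted p = 0.0224 and 0.0265), as were 12.8% of all tested genes. Against WT 1 alone Kdr and Cdh5 turned to -0.12 and -0.27. Pecam1 was at 12 to 17 in WT and 18 to 19 in KO. Vwf was on the other side, at 626, 1374 and 790 in WT against 316, 404 and 640 in KO, with a log2 difference of -1.02 (adjusted p = 0.171).

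The last members were low. Col7a1, which anchors epithelial sheets, was at 18, 11 and 11 in WT against 56, 37 and 27 in KO without overlap, a log2 difference of 1.49 ± 0.35 (SE, limma adjusted p = 0.158), 1.71 without WT 1 and 1.05 against WT 1 alone. Col28a1, a collagen known from peripheral nerve, was at 17, 0 and 2 in WT against 17, 18 and 17 in KO, so that WT 1 was level with the KO libraries and its difference was 2.28 from all libraries, 3.40 without WT 1 and 0.03 against WT 1 alone.

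Ratios between chains are given per kilobase of the longest annotated coding transcript. On this scale Col1a1 to Col1a2 was 0.991, 0.927 and 0.955 in WT and 0.997, 1.02 and 1.05 in KO, although type I collagen holds 2 chains of the first and 1 of the second. This level depends on the length used. With all annotated exons counted as length, the means per kilobase were 478 for Col1a1 and 228 for Col1a2. Col4a1 to Col4a2 was 1.11, 1.25 and 1.20 in WT and 1.10, 1.09 and 1.08 in KO, and Col5a1 to Col5a2 was 0.825 to 1.08. The type I ratio was thus higher and the Col4a1 to Col4a2 ratio lower in every KO library than in any WT library, and the type V ratio overlapped. The gaps were small, at 0.991 in WT 1 against 0.997 in KO 1 and 1.11 in WT 1 against 1.10 in KO 1. The counting error of these ratios was not estimated, so the order of the groups may rest on it. Col5a3 to Col5a1 was 0.250 to 0.386 over all libraries. Col6a3 to Col6a1 was 0.524, 0.491 and 0.497 in WT and 0.584, 0.594 and 0.713 in KO, without overlap. Col3a1 to Col1a1 was 0.526, 0.400 and 0.324 in WT and 0.648, 0.590 and 0.478 in KO, with overlap of WT 1 and KO 3. Col11a1 to Col5a1, whose products can share a molecule, ranged from 0.00509 in WT 2 to 0.172 in KO 1, and Col8a2 to Col8a1 from 0.0037 in WT 3 to 0.135 in KO 1.

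**Figure D3:**
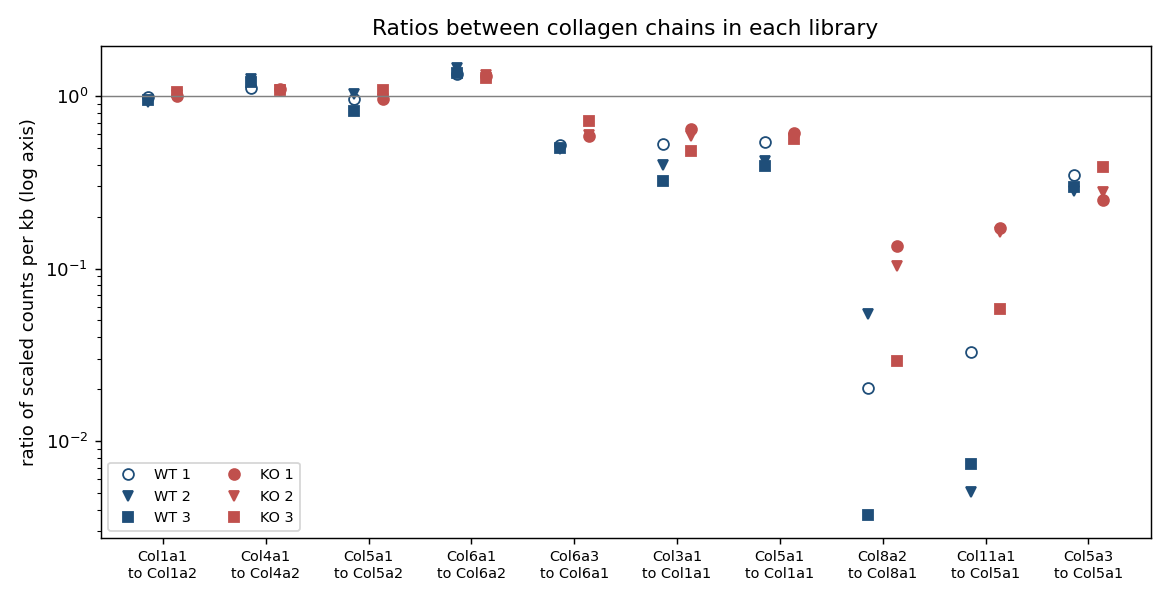
Ratio of scaled counts per kilobase between pairs of collagen chains (log axis) in each WT (blue) and KO (red) library. Col1a1 to Col1a2, Col4a1 to Col4a2 and Col5a1 to Col5a2 lie near 1 in all libraries, while Col11a1 to Col5a1 and Col8a2 to Col8a1 spread over more than a factor of 10.

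Col1a1 and Col1a2, the most abundant members, had KO to WT ratios of 1.62 and 1.53, below the 1.88 to 2.13 of Col3a1, Col4a1, Col4a2, Col5a1 and Col5a2. Such ratios were not particular to abundant members, as the lower genes Col15a1 and Col11a2 had 1.52 and 1.49. In 15 of the 30 tested collagens the ratio was at least 2. With all annotated exons of a gene counted as its length, Col1a1 averaged 478 scaled counts per kilobase, and 76 genes were higher. No gene averaged above 1 count per exonic base, and the highest was at 0.85. The submitters' processing notes name Picard, a tool that can mark duplicate reads, without giving its role, and whether duplicate removal limited the high values was not tested.

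Collagen chains are hydroxylated, folded, trimmed and crosslinked by dedicated enzymes. Of 60 listed genes of these steps, of collagen receptors and of fibril partners, 50 were tested. With all 6 libraries limma called 0 of them in either direction, and 32 were higher and 3 lower at a p under 0.05 before adjustment, against 14.7% and 9.68% of all tested genes. Their median log2 difference was 0.92, against 0.00 for all genes, and it was 0.26 against WT 1 alone. Without WT 1 limma called 33 higher and 2 lower, against 12.8% and 5.07% of all tested genes. The 2 called lower were the receptor genes Cd36 and Lair1.

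Propeptide processing, the removal of the chain ends outside the cell, was the list in which all tested genes were separated. In all 6 tested genes the KO libraries lay above the WT libraries without overlap, as did 16.1% of all tested genes, and the median difference was 1.49. Adamts2, which cuts off the N-terminal ends, was at 841, 273 and 294 in WT against 1157, 1022 and 1007 in KO. Adamts14, a related N-proteinase, was at 233, 71 and 63 in WT against 317, 279 and 304 in KO. Pcolce2, an enhancer of cleavage at the other end, was at 55, 9 and 12 in WT against 134, 97 and 102 in KO. WT 1 lay between its WT partners and the KO libraries in each. The log2 differences were 1.38 ± 0.43 for Adamts2, 1.55 ± 0.49 for Adamts14 and 2.52 ± 0.65 for Pcolce2 (SE, limma adjusted p = 0.158 for each). Without WT 1 they were 1.90, 2.15 and 3.28, and against WT 1 alone 0.33, 0.36 and 0.99.

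The hydroxylases were divided. The prolyl hydroxylase genes P3h3 and P3h1 had log2 differences of 0.68 ± 0.15 and 0.43 ± 0.11 (SE), and the lysyl hydroxylase gene Plod2 of 1.24 ± 0.35 (limma adjusted p = 0.158 for each). Without WT 1 these were 0.83, 0.52 and 1.62, and against WT 1 alone 0.39, 0.25 and 0.47. P3h3 was at 308, 239 and 214 in WT against 438, 409 and 367 in KO. The widely expressed genes P4hb, Plod1, P4ha1 and Plod3 lay between -0.06 and 0.09, with overlap between the groups. A similar division held for chaperones and export. Sec23a, a coat subunit of export vesicles, Fkbp14, a prolyl isomerase gene, and Creb3l1, a transcription factor of secretory cells, had differences of 0.44 ± 0.11, 1.48 ± 0.45 and 0.79 ± 0.24 (SE, limma adjusted p = 0.158 for each). Creb3l1 was at 535, 290 and 291 in WT against 665, 591 and 596 in KO. Sec23a and Creb3l1 were at 0.54 and 1.08 without WT 1, and Sec23a, Fkbp14 and Creb3l1 at 0.24, 0.44 and 0.20 against WT 1 alone. The collagen chaperone gene Serpinh1 was at 1107, 568 and 596 in WT against 1238, 1196 and 1200 in KO, while Ppib, Crtap and the export gene Mia3 had differences from -0.09 to 0.06. Some members were lower: in Mia2, another export gene, and Colgalt1, a collagen galactosyltransferase, the KO values were all under the WT values, with differences of -0.15 (unadjusted p = 0.0429, adjusted p = 0.193 by limma) and -0.11 (adjusted p = 0.280). Tmem38b, a channel of the endoplasmic reticulum, was at -0.28 with overlap (adjusted p = 0.210).

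Crosslinking enzymes of the lysyl oxidase family lay above WT in 5 of 5 genes by the sign of the difference, and their median was 1.18. Lox was at 1787, 619 and 673 in WT against 2340, 2186 and 1691 in KO. Loxl1 was at 601, 175 and 192 in WT against 807, 727 and 721 in KO, and Loxl4 at 65, 16 and 17 against 100, 98 and 101. Lox overlapped through WT 1 and KO 3, and Loxl1 and Loxl4 did not. The log2 differences were 1.18 ± 0.41 for Lox, 1.46 ± 0.46 for Loxl1 and 1.89 ± 0.53 for Loxl4 (SE, limma adjusted p = 0.168, 0.158 and 0.158). Without WT 1 they were 1.67, 2.03 and 2.52, and against WT 1 alone 0.20, 0.32 and 0.61.

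Collagen receptors ran in opposite directions. The receptor kinase gene Ddr1 was at 252, 67 and 77 in WT against 393, 313 and 336 in KO, and its relative Ddr2 of mesenchymal cells at 905, 161 and 217 against 1306, 1252 and 819. The leukocyte receptor gene Lair1, Cd36 and the integrin gene Itgb1 were lower in each KO library than in any WT library. Of the 10 tested receptor genes, 3 thus lay below and 3 above without overlap, against 13.4% and 16.1% of all tested genes. Itgb1 was at 2213, 2266 and 2118 in WT against 2094, 2088 and 2113 in KO, a log2 difference of -0.07 (limma adjusted p = 0.405). Lair1 was at 1547, 1645 and 1820 in WT against 1280, 1311 and 1402 in KO. Its log2 difference was -0.33 ± 0.07 and that of Cd36 -0.45 ± 0.08, against 1.65 ± 0.49 for Ddr1 (SE, limma adjusted p = 0.158 for each). Without WT 1, Lair1, Cd36 and Ddr1 were at -0.38, -0.52 and 2.25, and against WT 1 alone at -0.22, -0.31 and 0.45. Among proteoglycans and other partners of the fibril, Fmod was at 147, 49 and 57 in WT against 347, 328 and 128 in KO, and Bgn and Sparc had differences of 0.54 and 0.45 that were 0.79 and 0.65 without WT 1 and 0.05 and 0.04 against WT 1 alone.

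**Figure D4:**
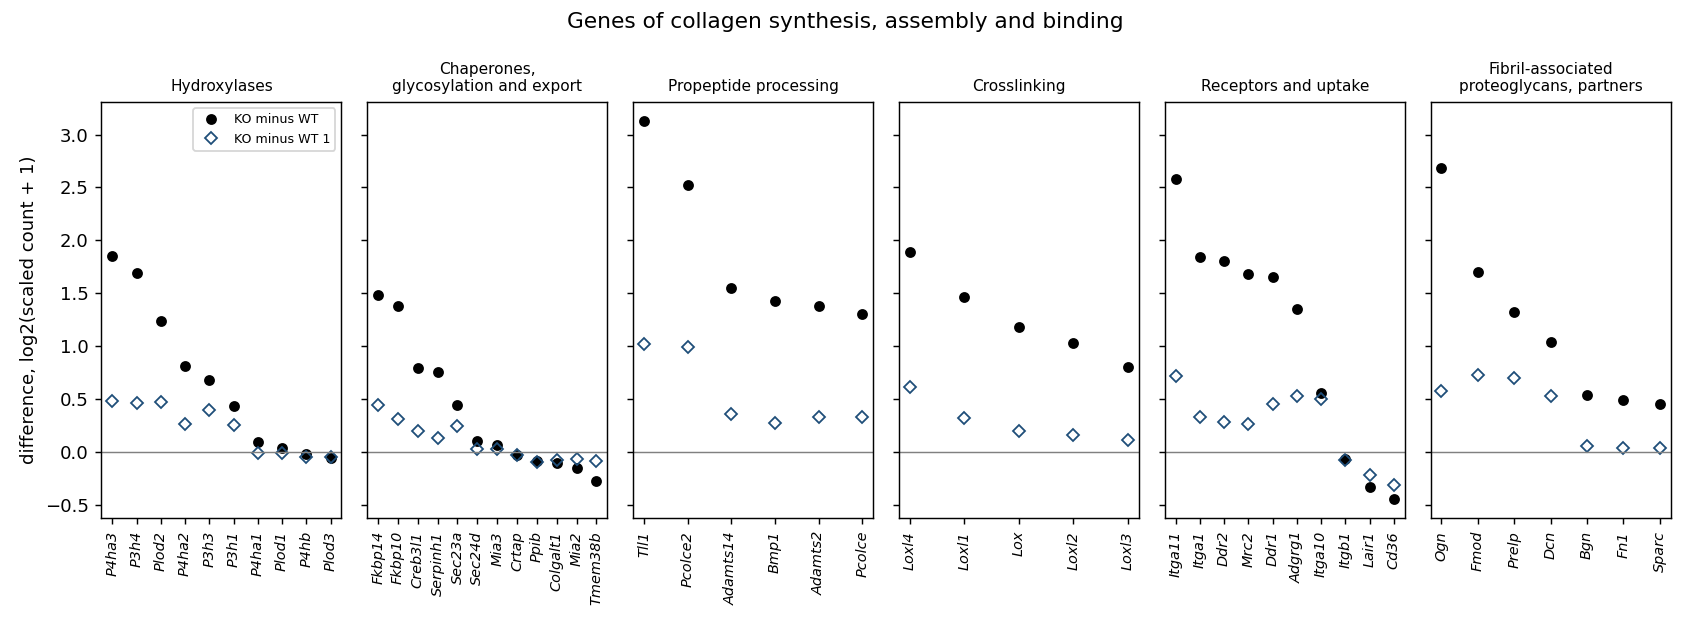
KO minus WT difference on the log2(scaled count + 1) scale for the tested genes of 6 lists of collagen synthesis, assembly and binding, from all 6 libraries (black) and against WT 1 (open diamonds). Propeptide processing and crosslinking genes all lie above 0, while Lair1 and Cd36 lie below 0 in both comparisons.

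Several markers of collagen-making cells were high in the same libraries as the collagens. All 12 macrophage markers were tested and their sum was 17434 to 17777 scaled counts in WT and 15966 to 16863 in KO, without overlap. By gene, all KO values were below all WT values in 6, against 13.4% of all tested genes. The other 6 overlapped, and 3 of the 12 had a positive difference. Macrophage RNA was thus present in every library, but the sum does not give the share of macrophages. The fibroblast and stroma list, with 13 of 14 genes present and 11 tested, summed to 4410, 1386 and 1337 in WT and to 7740, 6415 and 4926 in KO. Its largest part in every library was the matrix gene Fbn1, at 2334, 698 and 690 in WT against 3257, 2955 and 2751 in KO. By gene, all KO values were above all WT values in 6, against 16.1% of all tested genes, and the other 5 tested overlapped. Of the 11 tested, 10 had a positive difference and Pdpn was at -0.11. The list of pericytes and smooth muscle, with 8 of 8 tested, summed to 2964, 1318 and 1470 and to 3446, 3375 and 3540. Defining stromal markers were uneven. Pdgfrb was at 818, 196 and 204 in WT against 1269, 1082 and 931 in KO, while Lepr and Lum were at 0 to 11 and Dcn at 1 to 25 in all libraries. The endothelial sum was 828, 1475 and 887 in WT against 513, 574 and 824 in KO, most of it Vwf. The adipocyte list, with 2 of 5 genes tested, Lpl and Fabp4, which macrophages also express, summed to 3011, 3790 and 3557 in WT against 2212, 2258 and 2875 in KO. The osteoblast sum, mostly Spp1, which macrophages also express, was 1247 to 1403 in WT and 1317 to 1473 in KO, and the osteoblast gene Ibsp was at 4, 1 and 0 against 37, 23 and 3. Of the epithelial list only Krt19 was tested, at 22, 10 and 1 in WT against 95, 73 and 75 in KO. The part of these cells in the collagen differences was not tested, and in bulk RNA fewer cells of a type and less RNA per cell cannot be told apart.

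**Figure D5:**
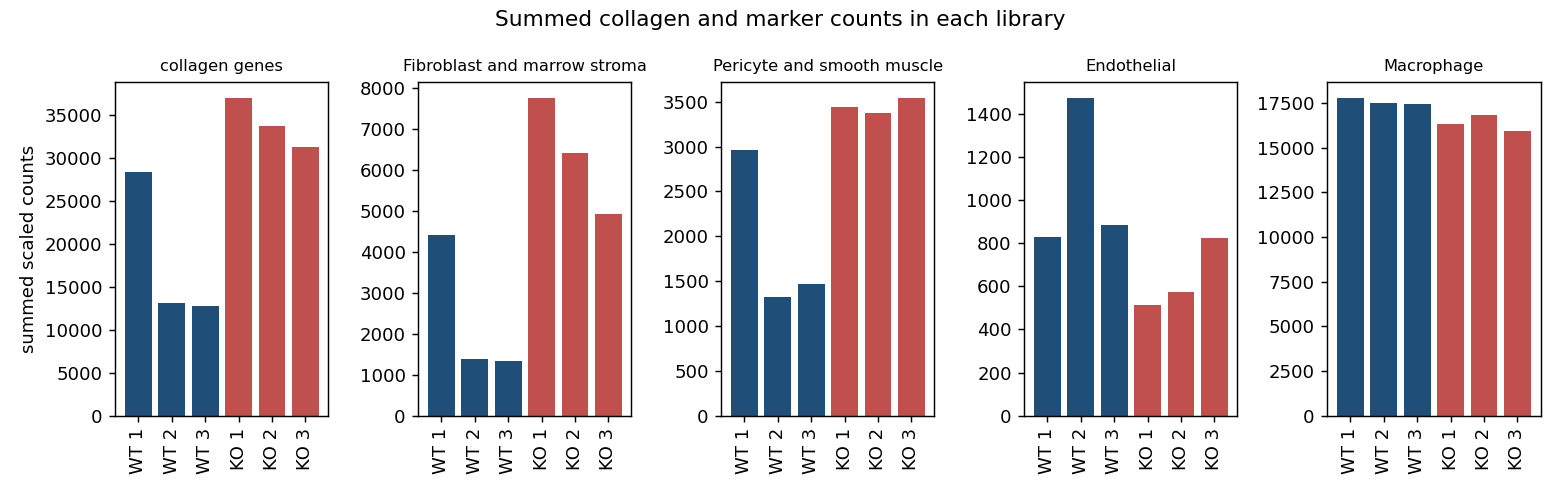
Summed scaled counts of the 34 collagens and of 4 cell type marker lists in each library (bars from 0, WT blue, KO red). The collagen sum runs from 12784 in WT 3 to 36924 in KO 1, the stroma sum has the same high and low libraries, and the macrophage sum stays between 15966 and 17777.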

How the data were processed

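Poly(A) RNA-seq libraries (3 WT, 3 KO) were made from 3 µg of total RNA with a stranded kit and read as single reads of 72 bases, per the labels' protocols. The authors deposited 1 table of 17313 genes. Its values are whole numbers that cannot be raw reads, since library totals were nearly equal and numbers such as 30 in WT 1 and 6 in WT 2 never occurred, so each deposited value was handled as a score. The submitters' processing notes name STAR 2.7.10a, featureCounts 2.0.3, Trimmomatic 0.39, DESeq2 1.36.0 and Picard 2.27.4 and the build mm10, without roles. The factor of WT 3 is unknown, and in the KO libraries scaling down and rounding gave different read numbers the same value. Exact reads were thus not available for all libraries, and no count model or counting intervals were used. No pair of libraries was identical.

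The 13260 genes with 3 or more libraries at 10 or above were tested two-sided on log2(value + 1) by limma 3.58.1 (intensity trend, R 4.3.3), with Benjamini-Hochberg adjustment over all of them at 0.05 and group as the only term. This scale understates changes of low genes. The fit was also run on simulated data with noise drawn independently for each gene and library. That noise holds no deviation shared across genes, as WT 1 had, so the simulation does not bear on the dependence on WT 1. Lengths and exons came from GENCODE M21, in which all 34 collagens had the deposited start and end, and promoters from RefSeq (GRCm38.p6). Other steps used Python 3.11.15 and pandas 2.3.3. Members and lists were chosen with earlier results of these data known. Every collagen is named, and of the pathway lists the 3 genes each with the smallest p. Serpinh1, Ddr2, the hydroxylase and chaperone genes near or below 0, the Y-linked genes and single markers were named after their values were seen. Alternatives were other pseudocounts, filters and scalings, no trend, the replicate block, and leaving out libraries.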

Additional observations from a re-analysis of the deposited data

How the results depend on the processing

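Of the 16 alternatives run, 15 called 0 collagens at an adjusted p under 0.05, as with all libraries. The exception was the fit without WT 1, so leaving out 1 library gave from 0 to 25 collagens, from 0 to 35 pathway genes and from 0 to 2363 genes over the whole table. That fit sets KO against WT 2 and WT 3 only, the libraries with low Xist, so genotype and that split cannot be told apart in it. With all libraries 22 collagens had an unadjusted limma p under 0.05, 21 higher and 1 lower, against 14.7% and 9.68% of all tested genes. Without WT 1 there were 26, 25 higher and 1 lower, against 18.7% and 14.1% of all tested genes. There were 9 without WT 3 or without KO 1, 11 without WT 2, 12 without KO 2 and 18 without KO 3. The shares over all genes are not given for these other fits, so how far the counts exceed them is not known. The median collagen difference of 1.14 was 0.87 to 1.62 with 1 library left out and 0.24 against WT 1 alone. Upper-quartile rescaling and cyclic loess gave medians of 1.13 and 1.21, and those with another pseudocount or filter 1.08 to 1.14. The count of collagens without overlap between groups was 13 to 27. The 13 came from the filter at a mean of 100, which kept 21 collagens, and the share of all genes is not given there. The 27 came without WT 1, where only 2 WT libraries remain and groups separate more easily. Of these, 25 lay above and 2 below. All KO libraries lay above WT 2 and WT 3 in 24.5% of all tested genes, against 16.1% above all WT libraries.

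The direction turned in 8 of the values of single collagens. Col18a1 was at 0.07 without WT 2 and 0.02 against WT 1 alone, and from -0.43 to 0.07 with 1 library left out. Col15a1 and Col6a4 were at -0.12 and -0.33 against WT 1 alone. Col23a1 was at -0.21 under cyclic loess, -0.14 without WT 1, -0.03 without WT 3 and -0.05 without KO 3, and from -0.14 to 0.44 with 1 library left out. The cause was not tested. With the replicate number as a block, 0 collagens were called, 22 had an unadjusted p under 0.05 and the median was 1.14. The deviations of same-numbered libraries correlated across genes at 0.534, -0.364 and 0.0238, and those of differently numbered libraries at -0.545 to 0.618. Deviations from a mean of 3 libraries depend on each other, so these values cannot settle whether the numbers pair the samples. Rescaling by TMM factors was not run. Depth limits the collagens under about 20 scaled counts.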
